A study of Mus musculus with 4 samples.

Results

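The 10 genes described here, *Mrc1*, *Cd163*, *Retnla*, *Clec10a*, *Mgl2*, *Lyve1*, *Folr2*, *Arg1*, *Chil3* and *Timd4*, are markers of resident and alternatively activated macrophages. They were chosen by name, and all 10 were found among the 19938 genes of the arrays, each through 1 probe set that names no other gene. The study asked how deleting *Napepld*, which encodes the enzyme NAPE-PLD that makes N-acylethanolamines, changes the adipose tissue of mice on a control (CT) or a high-fat diet (HFD). Subcutaneous adipose tissue of C57Bl6 mice aged 16 weeks was measured on 4 arrays, 1 for each genotype on each diet (WT-CT with cKO-CT, and WT-HFD with cKO-HFD). CT was the diet AIN93M and HFD the diet D12492, both from Research Diets, and the methods give the mice as male. WT mice were NAPE PLD lox/lox without Cre, so every group carried the floxed allele, and cKO mice were AP2 Cre NAPE PLD lox/lox. AP2 is another name of *Fabp4*, whose promoter drives Cre in adipocytes. The paper cites reports of Cre activity from this promoter in macrophages too. It found *Napepld* expression alike in peritoneal macrophages of both genotypes. Each array held RNA pooled from 4 to 5 mice selected for RNA quality, so the spread between mice was not measured, no test was possible, and every ratio below compares 2 pools.

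Macrophages that live in adipose tissue take up debris, iron and lipid, and many lie along vessels, where they carry LYVE1, the folate receptor FOLR2 and scavenger receptors such as CD163. Interleukin-4 and interleukin-13 signal through STAT6 and drive alternative activation, a state known in mice for the mannose receptor MRC1, the galactose lectins CLEC10A and MGL2, RELMα (*Retnla*), arginase 1 and the chitinase-like protein Ym1 (*Chil3*). TIMD4 binds phosphatidylserine and marks long-lived resident macrophages in several tissues.

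Promoters from RefSeq (GRCm38.p6) are shown for the 3 of these genes in which a searched motif was found, because STAT6, PU.1 and C/EBP are the factors best known for macrophage and alternative activation genes. Each window holds 250 bases before and 50 bases after the start, on the + strand in all 3, and capitals mark the motif matches. The windows are chr2:14229164-14229463 for *Mrc1*, chr11:70130107-70130406 for *Mgl2* and chr16:48842359-48842658 for *Retnla*.
Mrc1: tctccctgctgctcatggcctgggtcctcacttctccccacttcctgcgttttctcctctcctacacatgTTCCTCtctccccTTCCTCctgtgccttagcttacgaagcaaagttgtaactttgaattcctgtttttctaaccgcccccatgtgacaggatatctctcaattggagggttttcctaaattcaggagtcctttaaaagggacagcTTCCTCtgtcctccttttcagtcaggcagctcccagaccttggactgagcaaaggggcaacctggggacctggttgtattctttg
Mgl2: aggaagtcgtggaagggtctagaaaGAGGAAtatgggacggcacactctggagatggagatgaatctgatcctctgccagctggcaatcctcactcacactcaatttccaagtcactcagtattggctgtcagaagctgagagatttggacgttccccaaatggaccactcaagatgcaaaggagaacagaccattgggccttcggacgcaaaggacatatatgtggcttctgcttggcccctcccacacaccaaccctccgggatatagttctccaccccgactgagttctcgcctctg
Retnla: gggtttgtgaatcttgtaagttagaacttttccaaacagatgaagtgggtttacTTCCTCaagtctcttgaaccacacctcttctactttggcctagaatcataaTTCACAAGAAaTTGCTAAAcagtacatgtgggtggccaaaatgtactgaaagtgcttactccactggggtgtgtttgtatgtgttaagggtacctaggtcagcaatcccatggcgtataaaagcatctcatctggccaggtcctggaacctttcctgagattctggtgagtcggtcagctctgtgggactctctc
Of the 10 genes, 7 had an entry, with 8 windows, and both strands were searched. The STAT6-type motif TTCNNNNGAA was present in the *Retnla* window alone, as TTCACAAGAA starting at position -145, and in 6.95% of all 32851 windows of this length. The C/EBP-type motif TTGCNNAA was likewise found only in *Retnla*, at position -134, and in 10.8% of all windows. The PU.1-type motif GAGGAA, or TTCCTC on the other strand, was found in 3 of the 8 windows and in 28.3% of all windows, with 3 matches in *Mrc1*, at -180, -167 and -35. It lay at -225 in *Mgl2* and at -196 in *Retnla*. No matches overlapped one another, and these matches are letters in a window, not measured binding.

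Levels are given as log2 of the normalised array signal. As a background, the 95th percentile of 1027 olfactory receptor (*Olfr*) genes, most of which are silent outside the nose, was 5.39 (WT-CT) and 5.28 (cKO-CT) under CT, and 5.42 (WT-HFD) and 5.50 (cKO-HFD) under HFD. Of the 10 markers, 7 lay above this background on all 4 arrays (*Mrc1*, *Cd163*, *Retnla*, *Clec10a*, *Mgl2*, *Lyve1* and *Folr2*). *Timd4* lay above it on WT-CT and cKO-CT only, and *Arg1* and *Chil3* lay below it on every array, so that the alternatively activated markers read here were *Mrc1*, *Retnla*, *Clec10a* and *Mgl2*. The macrophage genes *Adgre1* (F4/80), *Cd68* and *Csf1r* were above background on all 4 arrays, and *Aif1* was on none. The level of *Napepld* itself was 8.31 in the WT-CT and 7.78 in the cKO-CT pool, with 8.01 in the WT-HFD and 7.94 in the cKO-HFD pool, which gave a log2 ratio of cKO over WT of -0.53 on CT and -0.06 on HFD. The array thus did not bear out the deletion in the pool labelled cKO-HFD, where *Napepld* was 0.16 higher than in cKO-CT, and whether its probes cover the deleted part is not given in the sources used here. From mRNA of several fat depots, subcutaneous included, the paper reports the deletion in its cKO groups on both diets. On the arrays themselves, each comparison of genotypes on HFD rests on the label, and cKO-HFD below means the pool labelled so. Over all genes, r between any pair of arrays was 0.980 to 0.989.

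The 7 markers above background shared 1 pattern. Each was higher in cKO than in WT on CT and lower in the pool labelled cKO-HFD than in WT-HFD, each was highest on WT-HFD (for *Lyve1* and *Mgl2* by only 0.0004 and 0.003 over cKO-CT), and 6 were lowest on WT-CT. The log2 ratios of the 7 ran from 0.26 to 0.77 for cKO-CT over WT-CT, from 0.33 to 0.88 for WT-HFD over WT-CT, then from -0.69 to -0.15 for cKO-HFD over WT-HFD. Of all 19938 genes, 9805 were higher in cKO-CT and 9812 in WT-HFD than in WT-CT, and 8843 were lower in cKO-HFD than in WT-HFD. The share of all genes with these signs together, or with this order of pools, was not counted. In tissue RNA, more cells of a type and more RNA per cell cannot be told apart. The 4 comparisons share arrays, so a low WT-CT pool enters both increases and a high WT-HFD pool enters both the diet increase and the genotype decrease.

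**Figure D1:**
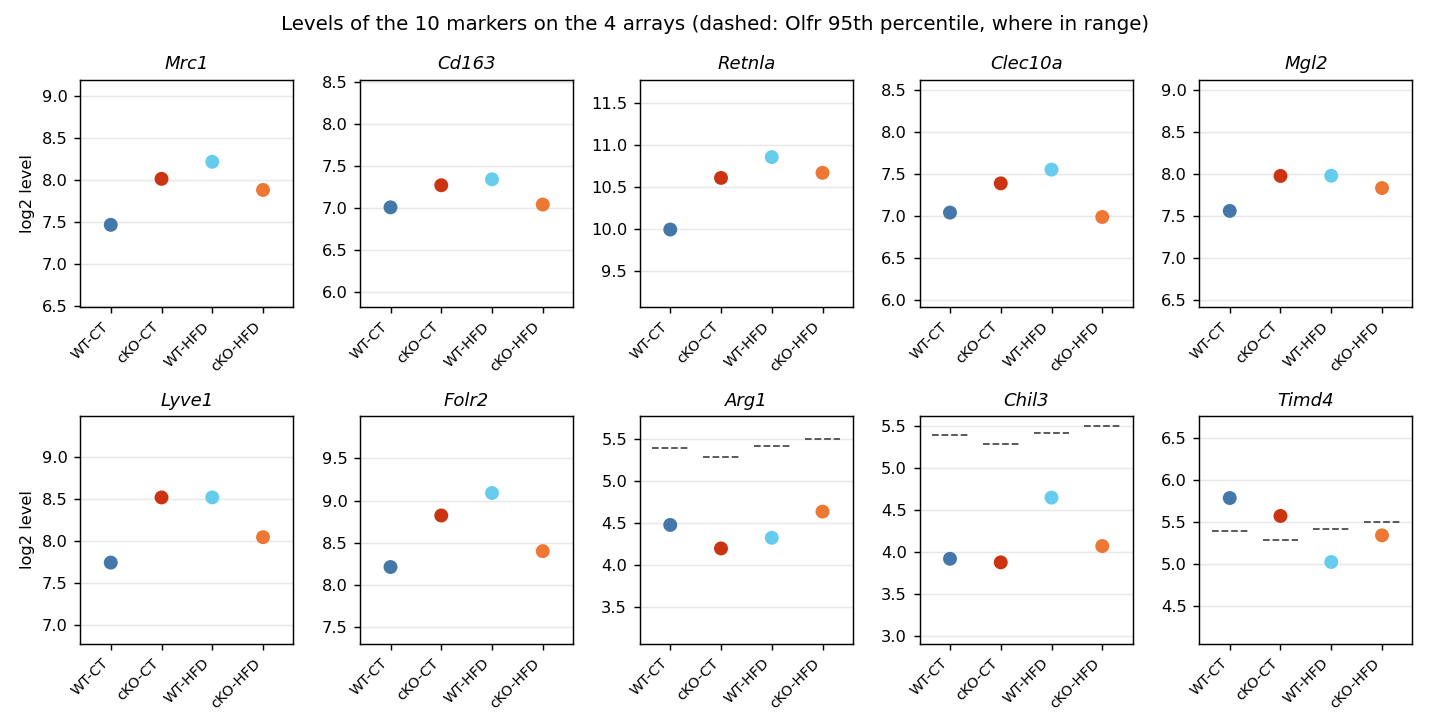
Log2 level (y axis, each panel with its own range of equal height) of the 10 markers on the 4 arrays (x axis, 1 pool of 4 to 5 mice each), with dashed lines for the *Olfr* 95th percentile where it is in range. The 7 markers above background peak on WT-HFD, while *Arg1* and *Chil3* stay below background on every array.

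Among the resident markers, *Lyve1*, a hyaluronan receptor of perivascular macrophages and of lymphatic vessels, had a log2 level of 7.74 in WT-CT against 8.52 in cKO-CT, and 8.52 in WT-HFD against 8.05 in cKO-HFD. The cKO-CT and WT-HFD pools had the same level, 1.71-fold above WT-CT, and cKO-HFD lay between them and WT-CT. *Folr2*, which encodes folate receptor beta, had a level of 8.21 (WT-CT) and 8.82 (cKO-CT) under CT, and 9.09 (WT-HFD) and 8.40 (cKO-HFD) under HFD. It was higher by 0.61 (log2) in cKO than in WT on CT and fell by 0.69 on HFD, to 0.619 times the WT-HFD signal. *Cd163*, the receptor that clears haemoglobin bound to haptoglobin, varied least of the 7, with levels of 7.004 in the WT-CT and 7.27 in the cKO-CT pool, with 7.34 in the WT-HFD and 7.04 in the cKO-HFD pool. Its ratios followed the same directions, but none reached 1.5-fold. *Timd4* ran the other way, with levels of 5.78 in WT-CT against 5.57 in cKO-CT, and 5.02 in WT-HFD against 5.34 in cKO-HFD. Its log2 ratio of WT-HFD over WT-CT was -0.76. Since WT-HFD lay below background, WT-CT was 1.29-fold higher when the *Olfr* percentile stood in for the WT-HFD level. This is not a firm bound, as *Timd4* on WT-CT was only 0.39 (log2) above the percentile of that array. In the same comparison 4.28% of *Olfr* genes passed 1.5-fold in either direction.

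Among the markers of alternative activation, *Mrc1*, an endocytic mannose receptor, had a log2 level of 7.47 (WT-CT) and 8.02 (cKO-CT) under CT, and 8.22 (WT-HFD) and 7.88 (cKO-HFD) under HFD. It rose 1.68-fold with HFD in WT, whereas its log2 ratio of 0.55 for cKO over WT on CT stayed just under 1.5-fold (0.585). *Retnla*, which encodes the secreted protein RELMα, had a level of 9.99 in the WT-CT and 10.61 in the cKO-CT pool, with 10.86 in the WT-HFD and 10.67 in the cKO-HFD pool. It differed from the other 6 in that cKO-HFD was not below cKO-CT (log2 ratio 0.06) and was still higher than WT-CT by 0.67. *Clec10a*, which encodes the lectin MGL1, had a level of 7.04 in WT-CT against 7.39 in cKO-CT, and 7.55 in WT-HFD against 6.99 in cKO-HFD. It was the exception to the low WT-CT value, with cKO-HFD lowest of the 4, and its log2 ratio of -0.56 for cKO-HFD over WT-HFD was just under 1.5-fold. *Mgl2*, the neighbouring lectin gene on chromosome 11, had a level of 7.56 (WT-CT) and 7.97 (cKO-CT) under CT, and 7.98 (WT-HFD) and 7.83 (cKO-HFD) under HFD. Both genes kept the same order over the other 3 pools but differed on cKO-HFD, where *Mgl2* was 0.27 above WT-CT and *Clec10a* -0.05.

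*Arg1*, the arginase that degrades arginine, had a log2 level of 4.48 in the WT-CT and 4.20 in the cKO-CT pool, with 4.32 in the WT-HFD and 4.63 in the cKO-HFD pool. *Chil3* had a level of 3.92 in WT-CT against 3.88 in cKO-CT, and 4.65 in WT-HFD against 4.07 in cKO-HFD. Both were under the background throughout, so their ratios, including 0.73 for *Chil3* in WT-HFD over WT-CT, are differences between signals not told from background.

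Calls at 1.5-fold were set beside the same calls over all 19938 genes. For cKO-CT over WT-CT, 3 of the 10 markers were higher (*Retnla*, *Lyve1* and *Folr2*), beside 1.64% of all genes, and 0 were lower, beside 1.52%. After cyclic loess normalisation of the deposited values, *Retnla* (0.54) and *Folr2* (0.52) were under 1.5-fold and *Lyve1* alone was higher. The median log2 ratio was 0.38 over the 10 markers and -0.005 over all genes, and 0.406% of all genes had a ratio at least as high as *Lyve1*. For WT-HFD over WT-CT, 5 markers were higher (*Mrc1*, *Retnla*, *Lyve1*, *Folr2* and, below background, *Chil3*), beside 3.16% of all genes, and 1 (*Timd4*) was lower, beside 2.67%. The median was 0.62, against -0.004 over all genes. For cKO-HFD over WT-HFD, 0 markers were higher, beside 1.04% of all genes, and *Folr2* alone was lower, beside 2.11%, with a median of -0.32 against 0.03 over all genes. For cKO-HFD over cKO-CT, no marker passed 1.5-fold in either direction, beside 1.82% of all genes higher and 2.17% lower, and the median was -0.19 against 0.02. The background moved too. Of the *Olfr* genes, 3.02% passed 1.5-fold in either direction in cKO-CT over WT-CT, 1.27% in cKO-HFD over WT-HFD, 4.28% in WT-HFD over WT-CT and 5.45% in cKO-HFD over cKO-CT.

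**Figure D2:**
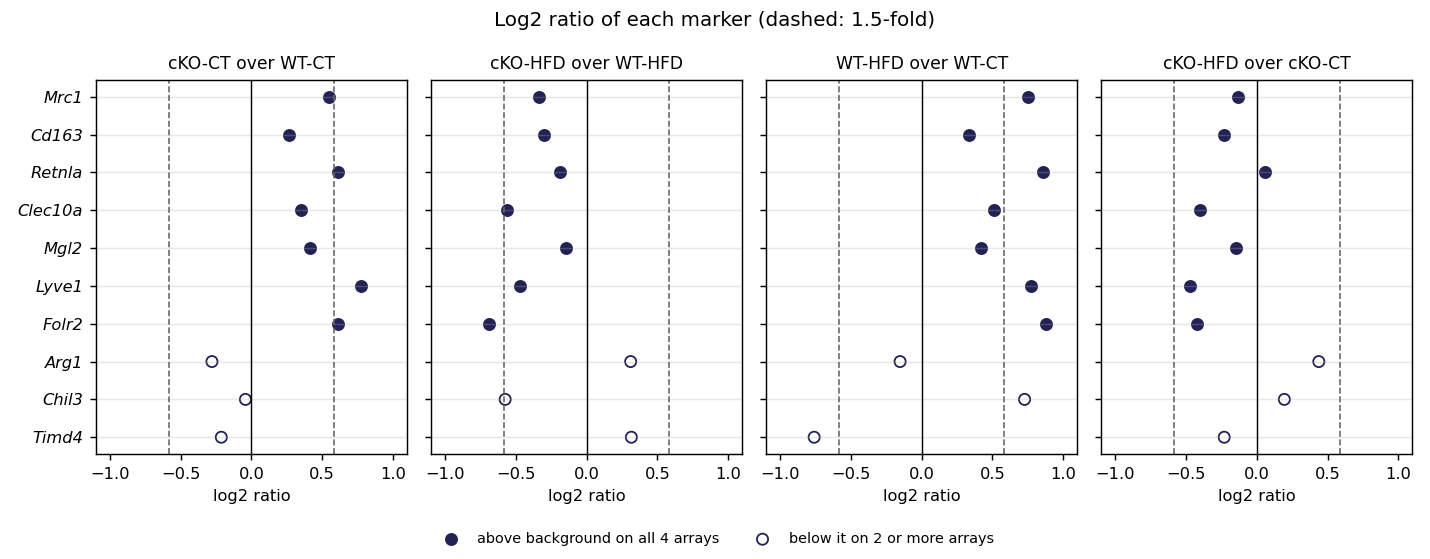
Log2 ratios (x axis) of the 10 markers (y axis) in the 4 comparisons, each ratio between 2 arrays, with dashed lines at 1.5-fold. The 7 markers above background are right of 0 for cKO-CT and WT-HFD over WT-CT, and left of 0 for cKO-HFD over WT-HFD.

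The change of the genotype ratio with diet was taken as the log2 ratio of cKO over WT on HFD minus that on CT. It was lower by at least 1.5-fold for 5 markers, beside 5.12% of all genes, with values of -1.30 for *Folr2*, -1.25 for *Lyve1*, -0.91 for *Clec10a*, -0.88 for *Mrc1* and -0.80 for *Retnla*. *Cd163* and *Mgl2*, both at -0.56, came close and passed the limit after median centring, at -0.59 each. After cyclic loess *Chil3*, below background, was also past it, at -0.65. *Arg1* was higher, at 0.59, beside 5.56% of all genes, but all its levels were below background, and it was under the limit after median centring (0.56) and loess (0.46). The median was -0.68 over the 10 markers and 0.02 over all genes, and each value rests on all 4 arrays.

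**Figure D3:**
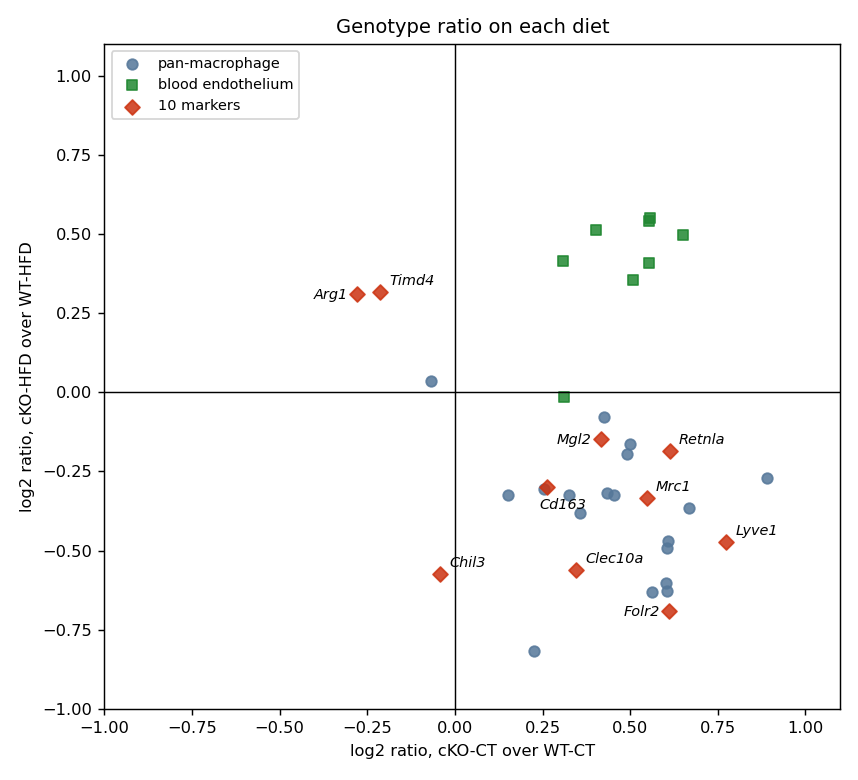
Log2 ratio of cKO over WT on CT (x axis) and on HFD (y axis) for the 10 markers (diamonds), pan-macrophage genes (circles) and blood endothelial genes (squares), 1 point per gene. The 7 markers above background and most pan-macrophage genes lie in the lower right quadrant, while endothelial genes lie in the upper right or at 0.

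Genes that macrophages share whatever their state moved in the same directions as the 7 markers, apart from *Aif1*, which was below background. Of 18 pan-macrophage genes, 6 were higher and 0 lower for cKO-CT over WT-CT (median log2 ratio 0.47), 10 were higher and 0 lower for WT-HFD over WT-CT (0.67), and 0 were higher and 4 lower for cKO-HFD over WT-HFD (-0.33). *Cd68*, a lysosomal glycoprotein, had a level of 7.66 (WT-CT) and 8.32 (cKO-CT) under CT, and 8.98 (WT-HFD) and 8.61 (cKO-HFD) under HFD. *Tyrobp*, an adaptor of activating receptors, and *Ctss*, the protease cathepsin S, rose by 1.09 and 1.04 in WT-HFD over WT-CT. *Adgre1* had a log2 ratio of -0.60 for cKO-HFD over WT-HFD. The paper measured inflammatory markers by qPCR, *Adgre1* among them, and stained tissue for its protein. It describes these markers as alike in the HFD groups of both genotypes. The decrease on HFD seen here thus differs from that report, and it rests on 1 pool per genotype. After the pan-macrophage median was subtracted, the median of the 7 markers was 0.07 for cKO-CT over WT-CT, -0.01 for cKO-HFD over WT-HFD, 0.08 for WT-HFD over WT-CT, then -0.10 for cKO-HFD over cKO-CT. As a group, the 7 markers thus lay close to macrophage genes at large, and single markers departed from them. *Lyve1* stood 0.30 above the pan-macrophage median in cKO-CT over WT-CT and -0.34 from it in cKO-HFD over cKO-CT, *Folr2* lay -0.37 from it in cKO-HFD over WT-HFD, and *Retnla* stayed above it in all 4 comparisons, by 0.14 to 0.19.

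Other resident macrophage genes, 21 measured, had medians of 0.43 for cKO-CT over WT-CT with 3 higher (*Cd209d*, *Gas6* and *Colec12*), 0.33 for WT-HFD over WT-CT with 5 higher (*Maf*, *Hmox1*, *Colec12*, *Wwp1* and *Cd209d*), and -0.21 for cKO-HFD over WT-HFD with 2 lower (*Vsig4* and *Ccl8*). *Maf*, a transcription factor of resident macrophages, rose by 0.75 in WT-HFD over WT-CT, and *Cd209d*, a lectin related to DC-SIGN, rose by 0.70 in cKO-CT over WT-CT. On HFD, 7 of the 21 did not follow the markers, with a log2 ratio of cKO over WT above 0. Among them were *Ltc4s* (0.35) and *Hmox1*, which degrades haem (0.18). Of the 19 above background on all 4 arrays, a subset taken after the values were seen, 12 had the signs of the 7 markers in these 3 comparisons. For cKO-HFD over cKO-CT the resident genes had a median of -0.21 with 3 lower (*Cd209f*, *Vsig4* and *Gas6*), and *Vsig4* was below background on every array.

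Of the other alternative activation genes, 19 were measured, and 9 of these were below background on every array. Over all 19 the median ratio to WT-CT was 0.05 in cKO-CT and 0.11 in WT-HFD, while cKO-HFD over WT-HFD had 0.06. Over the 8 above background on all 4 arrays, a subset taken after the values were seen, these medians were 0.23, 0.18 and -0.08, and 5 of the 8 (*Ccl24*, *Socs2*, *Rbpj*, *Trem2* and *Fn1*) had the signs of the 7 markers in all 3 comparisons. *Rnase2a*, a ribonuclease of macrophages and eosinophils, was above background only on the HFD arrays, with levels of 3.89 in the WT-CT and 5.14 in the cKO-CT pool, with 6.97 in the WT-HFD and 7.18 in the cKO-HFD pool. *Fn1*, which encodes fibronectin and is made by many cells, was 0.85 higher in cKO-CT and 0.98 higher in WT-HFD than in WT-CT. *Trem2*, a lipid receptor, was 0.72 higher in WT-HFD than in WT-CT.

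In the pathway that feeds alternative activation, 23 genes were measured. The cytokine genes *Il4*, *Il5* and *Il10* were below background on all arrays, and *Il13* lay at 5.41 to 5.52, next to the percentile. *Il13ra1*, a receptor chain for interleukin-13, had a level of 5.99 in WT-CT against 6.49 in cKO-CT, and 6.72 in WT-HFD against 5.81 in cKO-HFD, so it rose by 0.73 with HFD in WT and fell by 0.90 in cKO-HFD against WT-HFD. *Stat6* had a level of 8.05 (WT-CT) and 8.55 (cKO-CT) under CT, and 8.48 (WT-HFD) and 8.40 (cKO-HFD) under HFD, with no ratio past 1.5-fold. *Ppargc1b*, a coactivator of oxidative metabolism that adipocytes also express, fell by 0.65 in cKO-CT and by 1.38 in WT-HFD against WT-CT. The list held 0 higher and 1 lower call for cKO-CT over WT-CT, 1 higher and 1 lower for WT-HFD over WT-CT, 0 higher and 1 lower for cKO-HFD over WT-HFD, and 0 higher and 2 lower for cKO-HFD over cKO-CT.

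Genes of lipid-associated macrophages, which gather around dying adipocytes, were set beside the resident markers. For WT-HFD over WT-CT, 6 of the 15 measured were higher and 2 lower, and *Gpnmb*, a lysosomal membrane glycoprotein, rose by 1.49, *Atp6v0d2*, a proton pump subunit, by 1.20 and *Itgax* (CD11c) by 1.16. On WT-CT, *Atp6v0d2* (4.37) and *Itgax* (4.82) lay below the background of 5.39. *Atp6v0d2* was above background on WT-HFD alone (5.56), so the size of these 2 rises is uncertain. For cKO-HFD over cKO-CT their median was 0.23, where the other resident genes had -0.21 and the 10 markers -0.19. The difference between the lists was not tested. For the genotypes their median was 0.15 on CT and -0.04 on HFD. Over the 13 above background on all 4 arrays, the median ratio to WT-CT was 0.14 in cKO-CT and 0.12 in WT-HFD. It was 0.01 for cKO-HFD over WT-HFD, and 6 of the 13 had the signs of the 7 markers in all 3 comparisons. Adipocytes express *Cd36*, *Lpl*, *Plin2* and *Fabp5* of this list, each above 0 for cKO-HFD over WT-HFD (0.22 to 0.75). Without them, a subset that was not planned, the medians were 0.28 for cKO-HFD over cKO-CT and 0.72 for WT-HFD over WT-CT. For cKO over WT they were then 0.31 on CT and -0.10 on HFD, and the last 3 of these medians had the signs of the 7 markers. Classical activation genes had a median ratio to WT-CT of 0.12 in cKO-CT and 0.19 in WT-HFD, and of 0.08 for cKO-HFD over WT-HFD. Of the 16 measured, 7 were above background on all arrays, with a median of 0.14 for cKO-HFD over WT-HFD. Only 2 of these (*Ccl5* and *Ptgs2*) had the signs of the 7 markers in all 3 comparisons. *Ccl2*, a chemokine that draws monocytes, was 0.70 higher in WT-HFD and *Ccl5*, a chemokine for T cells, 0.53 higher than in WT-CT. In cKO-HFD over WT-HFD, *Ccl2* was 0.50 higher and *Ccl5* stood at -0.23.

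**Figure D4:**
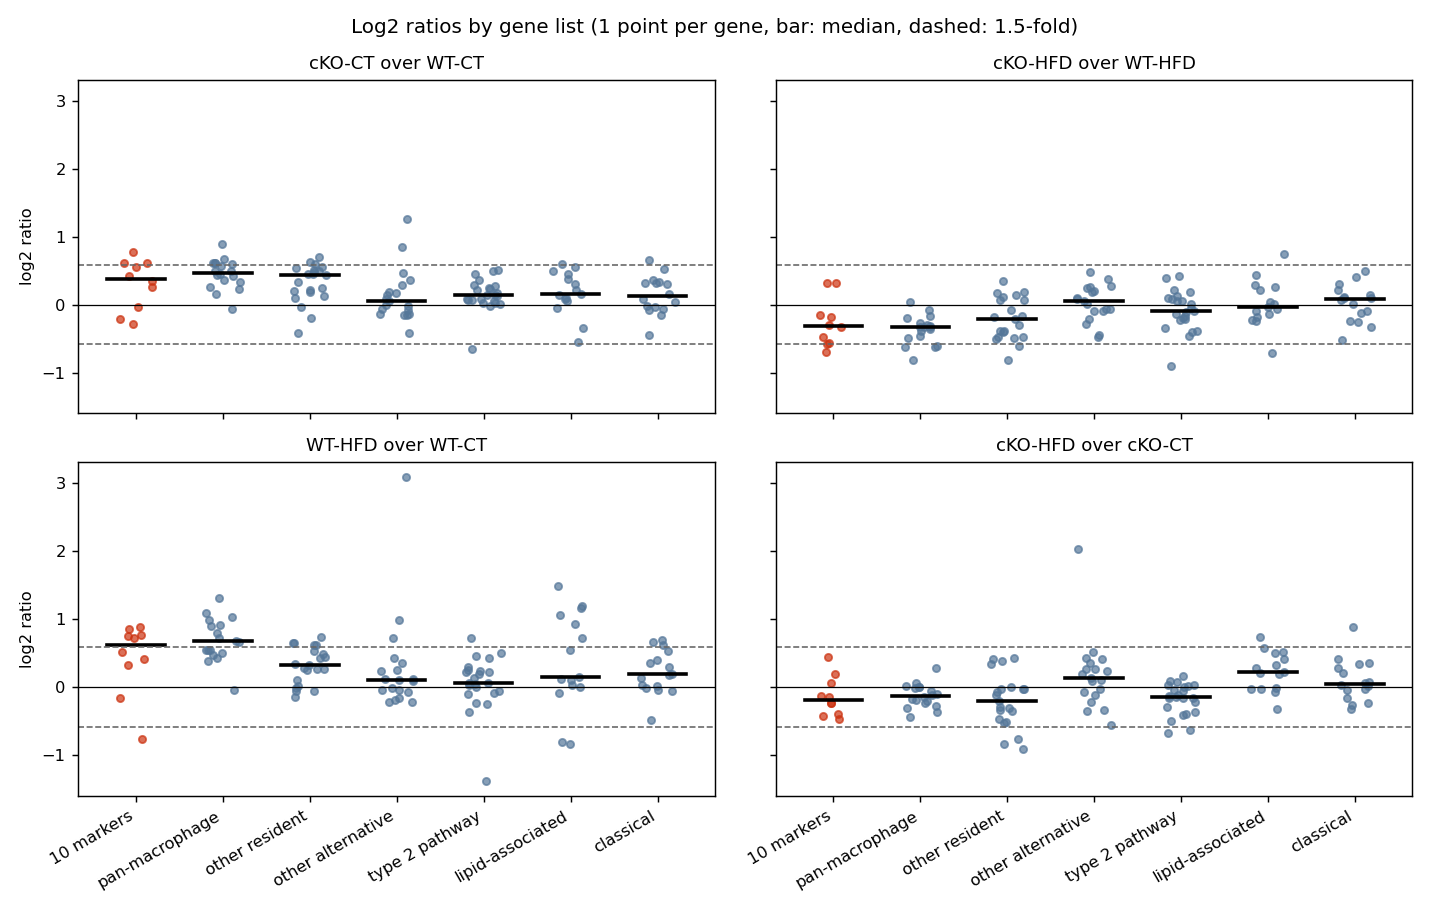
Log2 ratios (y axis) of the genes of each list (x axis) in the 4 comparisons, 1 point per gene, with a bar at the median of the list. The pan-macrophage and other resident lists shift with the 10 markers for cKO-CT over WT-CT (medians 0.47, 0.43 and 0.38), and the other alternative activation list, with 9 of 19 genes below background on every array, has a median of 0.05 (0.23 over the 8 above background on all arrays).

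Several other tissues and cell types moved between the same pools, and their part in the marker differences was not tested. For skeletal muscle genes, 12 of 15 were higher in WT-HFD than in WT-CT and 15 of 15 lower in cKO-HFD than in WT-HFD (medians 1.80 and -4.13), so muscle RNA peaked on the same array as the markers. Their summed linear signal was 14875 in the WT-CT and 15414 in the cKO-CT pool, with 44369 in the WT-HFD and 3664 in the cKO-HFD pool, whereas that of the 18 pan-macrophage genes was 4743, 6761, 8153 and 6050 in the same order. On CT the muscle genes had a median of -0.07 for cKO over WT, with single genes from -1.22 to 0.62. At 1.5-fold, 1 of the 15 was higher and 3 were lower. The 7 markers were 0.26 to 0.77 higher in cKO-CT than in WT-CT, and a part of muscle RNA in this was not tested. Of 13 genes listed for pancreatic acinar cells, 10 were lower in cKO-CT and 10 in WT-HFD than in WT-CT (medians -1.79 and -1.56), and their summed signal was 1892 in WT-CT against 500 in cKO-CT, and 575 in WT-HFD against 547 in cKO-HFD. WT-CT, the lowest pool for 6 of the 7 markers, was thus the pool with the most acinar signal. For *Lyve1*, the lymphatic genes *Prox1*, *Mmrn1* and *Foxc2* were below background on all arrays, and the 7 lymphatic genes measured had a median of 0.16 for cKO-CT over WT-CT with none past 1.5-fold, a median of -0.15 for cKO-HFD over WT-HFD with 1 of 7 lower, and a summed signal of 360 (WT-CT) and 387 (cKO-CT) under CT, and 402 (WT-HFD) and 329 (cKO-HFD) under HFD. That gene, *Pdpn*, which encodes podoplanin, was above background on every array and had the same signs as *Lyve1*, with levels of 6.86 in WT-CT against 7.07 in cKO-CT, and 7.30 in WT-HFD against 6.59 in cKO-HFD. *Flt4*, the receptor VEGFR3, had a log2 ratio of 0.48 for cKO over WT on CT and 0.17 on HFD. Dendritic cells can also carry *Clec10a*, *Mgl2* and *Mrc1*, and of 10 dendritic cell genes 1 (*Cd209a*, 0.72) was higher for cKO-CT over WT-CT. Blood endothelial genes were, as the 7 markers, higher in cKO-CT than in WT-CT (median 0.53, 8 of 8 above 0). They were also mostly higher in WT-HFD than in WT-CT (0.25, 7 of 8). They differed from the markers in being mostly higher in cKO-HFD than in WT-HFD (0.46, 7 of 8).

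The genes whose levels over the 4 arrays, centred on their own mean, lay nearest to *Mrc1* were *Unc93b1*, *Efemp1*, *H2-Ab1*, *Lama2* and *C1qb*, at root mean square distances of 0.011 to 0.035 (log2) among 5362 genes with a mean level of at least 7. The nearest to the mean of the 7 markers were *Cd34*, *Smoc2*, *Slc49a4*, *Csf1r* and *Cd52*, at 0.011 to 0.042. *C1qb*, a complement subunit, and *Csf1r*, the receptor for macrophage colony-stimulating factor, are pan-macrophage genes, whereas *Cd34* marks progenitors and endothelium. *Cd34* (0.011) lay nearer to the mean of the 7 markers than *Csf1r* (0.037), so this nearness was not particular to macrophage genes. With 4 arrays such nearness rests on 4 values a gene.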

How the data were processed

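Subcutaneous adipose tissue RNA, pooled within each group (from 5 mice in the methods, 4 to 5 in the labels), was hybridised to 4 Affymetrix MoGene 1.0 ST arrays. The deposited values are log2 levels that the authors made by RMA (RMA-Sketch of the APT suite in the methods, Affymetrix Expression Console in the processing notes), which corrects background, quantile normalises and summarises probes. No detection P values were used. The median level was 5.60 for WT-CT and cKO-HFD, 5.55 for cKO-CT and 5.58 for WT-HFD, and the number of arrays limits the precision.

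Of 35556 probe sets, 21789 had 1 gene name in the platform annotation, which can be old, 1621 several and 12146 none. Probe sets that name the same single gene were averaged. Ratios are differences of log2 levels, called at 1.5-fold, the size the study used for its gene lists, with no test since each group is 1 array. The markers and the 16 other lists (214 of 229 symbols measured) were chosen with earlier results of these data known. Named were the 10 markers, *Napepld*, up to 3 genes a list with the largest ratio in cKO-CT or WT-HFD over WT-CT among those above background on at least 1 array, genes behind counts of 5 or fewer, paralogs and the 5 nearest profiles. *Adgre1*, *Csf1r*, *Aif1*, *Stat6*, the cytokines, and the lymphatic genes were named as defining genes after their values were seen. Neutrophil and eosinophil with innate lymphoid lists, mostly below background, had median ratios of -0.13 to 0.33 in the 4 comparisons, and adipocyte genes of -0.04 to 0.13. Liver genes had medians of -0.08 to 0.17, with 6 of 8 below background. The other 2 moved, *Alb* by -1.64 in WT-HFD over WT-CT and -2.03 in cKO-HFD over cKO-CT, and *Apoa1* by 1.12 in cKO-HFD over WT-HFD.

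Alternatives were median centring, cyclic loess (limma 3.58.1, R 4.3.3), the highest probe set, filters on level, a 2-fold limit and subtraction of the pan-macrophage median. The calculation was tested on simulated data with planted changes of 2-fold or more, so the test did not cover changes near 1.5-fold. Tables and plots were made in Python 3.11.15 (pandas 2.3.3, numpy 2.4.6, matplotlib 3.10.9).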

Additional observations from a re-analysis of the deposited data

Results flagged for a closer look

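For 9 of the 10 markers the log2 ratio of cKO over WT had opposite signs on the 2 diets, with 1 array per group, and the difference was not tested. Of all 19938 genes, 9805 were above 0 and 10113 below on CT, and 11064 above and 8843 below on HFD. Opposite signs are thus common among genes at large, and their share over all genes was not counted. On the arrays, the HFD ratio rests on the label of the cKO-HFD pool, in which *Napepld* was -0.06 from WT-HFD. The paper reports the deletion in its cKO groups on both diets. The ratio on HFD minus that on CT was -0.88 for *Mrc1*, -0.56 for *Cd163*, -0.80 for *Retnla*, -0.91 for *Clec10a*, -0.56 for *Mgl2*, -1.25 for *Lyve1* and -1.30 for *Folr2*. It was 0.59 for *Arg1* and 0.53 for *Timd4*, which lay below background on 4 and on 2 of the 4 arrays.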

How the results depend on the processing

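The ratios of single markers moved by less than the spread of ratios among genes of like level under median centring and cyclic loess. The highest probe set could not change them, since each marker has 1 probe set, and a filter only keeps or drops a marker. Counts near the limit moved. For cKO-CT over WT-CT, the median of 0.38 became 0.48 over markers above background on at least 1 array, 0.55 at a mean level of at least 7, 0.30 under loess and 0.55 over the 7 above background on all arrays, a filter chosen after seeing the data. The 3 markers higher became 1 under loess, where *Retnla* (0.54) and *Folr2* (0.52) were under 1.5-fold, and 0 at 2-fold. For cKO-HFD over WT-HFD, the 1 marker lower became 2 under loess, with *Chil3* at -0.62 and below background, and 0 at 2-fold. For WT-HFD over WT-CT, the median of 0.62 became 0.75 at a level of at least 7 and over the 7, the 5 higher became 0 at 2-fold, and the 1 lower became 0 at 2-fold and under both of those filters. For the genotype ratio on HFD minus CT, examined after seeing the data, the median of -0.68 became -0.84 over markers above background on at least 1 array and -0.88 at a level of at least 7 and over the 7. The 5 markers lower became 7 under median centring, 6 under loess and 2 at 2-fold, and the 1 higher (*Arg1*) became 0 under both scalings, every filter and 2-fold. Minus the pan-macrophage median, the medians of the 10 markers were -0.091 for cKO-CT over WT-CT, 0.0081 for cKO-HFD over WT-HFD and -0.054 for WT-HFD over WT-CT, each opposite in sign to the median without subtraction, and -0.057 for cKO-HFD over cKO-CT, and that of the genotype ratio on HFD minus CT was 0.084. *Chil3* in cKO-CT over WT-CT changed sign under loess, to 0.04. No paired analysis was possible because each group has 1 array, and no replicate could be left out.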

Other observations

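Relatives of the markers were read from their own probe sets. *Mrc2*, a collagen receptor of fibroblasts related to *Mrc1*, had levels of 6.88 (WT-CT) and 7.81 (cKO-CT) under CT, and 7.96 (WT-HFD) and 8.47 (cKO-HFD) under HFD, so that cKO-HFD was highest, unlike *Mrc1*. *Retn*, the adipocyte hormone resistin and a relative of *Retnla*, lay at 13.32 to 13.36 on all 4 arrays. Of the 16 paralogs, 12 were below background on every array, among them *Chil4*, *Arg2*, *Folr1* and *Asgr2*. *Cd44*, which binds hyaluronan as LYVE1 does, was 0.70 higher in WT-HFD than in WT-CT.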
